A study of Rattus norvegicus with 2 samples.

Results

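Satiety peptides and their receptors were described in the nucleus of the solitary tract (NTS), the dorsal medullary nucleus where vagal signals from the gut enter the brain. The genes were Gcg, Cck, Cartpt and Prlh, which encode peptides, and Glp1r, Cckar, Cckbr, Lepr, Mc4r and Mc3r, which encode receptors. They were taken as the array probes outside the controls whose transcript accession belongs to 1 of these 10 rat genes in RefSeq. All 10 were found, with 11 probes on 20 spots, among 16581 named genes, and 9 of the 10 were well above background in both pools. The samples were 9-week-old rats of the SHR strain, which is spontaneously hypertensive, and neither sex received a drug or other treatment named in the labels. Food and water were freely available until collection, ether and decapitation followed, and the NTS was cut out from 1.0 mm rostral to 0.5 mm caudal of the calamus scriptorius by 1 operator. RNA of 5 males was pooled for 1 array and RNA of 5 females for the other, with 100 ng from each rat, so animals were not measured singly. The groups differ in sex and have no normotensive or fasted counterpart here.

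These genes form a circuit that limits meals. After food enters the gut, intestinal cholecystokinin (CCK) acts on CCK-A receptors of vagal afferents, whose fibres end in the NTS. There, separate groups of neurons make glucagon-like peptide 1 from the Gcg precursor and prolactin-releasing peptide from Prlh, the latter in noradrenergic cells. Leptin from fat and melanocortins made from Pomc act on receptors in the same region and strengthen the response to such signals.

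The 2 arrays came from 1 slide and gave no replicate of either sex, so no test and no p-value was possible, and differences between pools cannot be set against the spread between animals. Values are scaled signals, on which the 75th percentile of an array is 100. Differences are female minus male on the log2 scale, and the error beside each is that of the scanner software's own model of a spot, which covers neither animals nor labelling. Probes bind with different strength, so signals are compared between arrays and do not rank genes by RNA amount. Words such as bright, and sums over a list, describe spot signal only, and a sum is weighted to its brightest probes. Of 13428 measured named genes, 308, or 2.29%, were past 1.5-fold and 0.551% past 2-fold. The share past 1.5-fold was 1.5% on the female side and 0.797% on the male side. That split of 201 to 107 genes was 137 to 157 after quantile scaling and 260 to 84 when the arrays were centred on spike-ins.

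Of the 9 measured satiety genes, 1 was past 1.5-fold, against 2.29% of all genes, and the same gene was the 1 past 2-fold. This was Lepr, higher in the female pool. Prlh and Cck were also higher in the female pool, while Gcg, Cartpt and Mc4r were higher in the male pool, all by less than 1.5-fold. In all, 6 of the 9 were higher in the female pool, where 55.5% of all measured genes were; Glp1r, 1 of the 6, was at or below 0 after quantile or loess scaling. The median difference was 0.08 for the 9 genes and 0.02 for all genes. The range over the 9 genes ran from -0.53 for Gcg to 1.11 for Lepr.

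**Figure D1:**
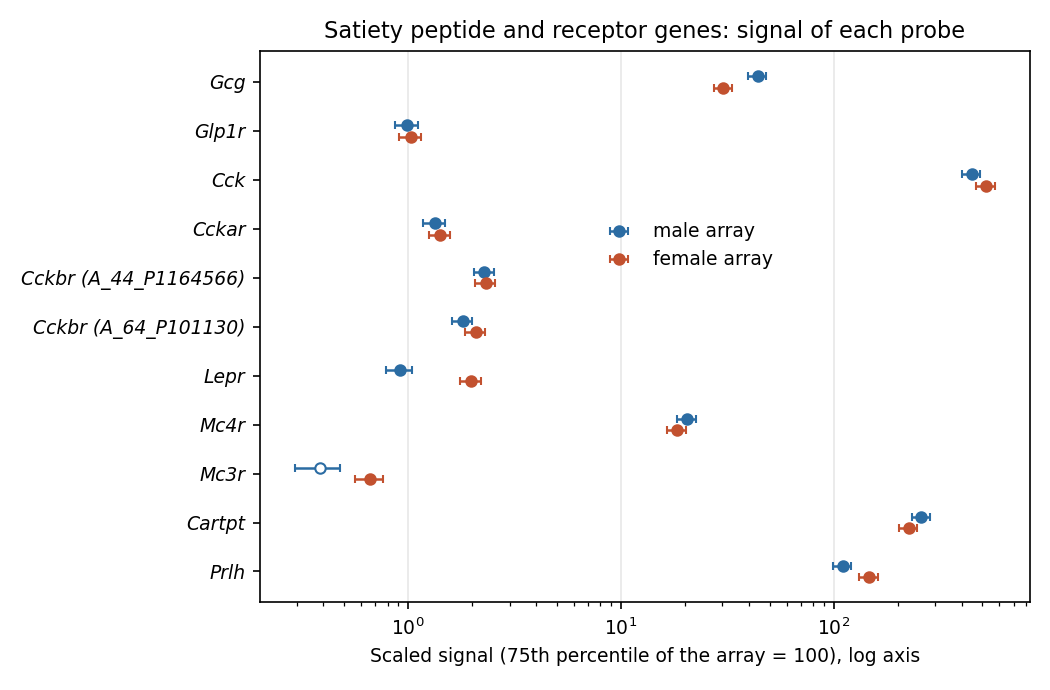
Scaled signal of each of the 11 probes on the male and the female array, on a log axis, with bars for the error of the software's spot model. An open circle is a probe not well above background; Lepr is the measured gene whose points lie furthest apart, at 0.913 and 1.97, and positions are comparable within a row only.

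Among the peptide genes, Gcg differed most between the arrays. Gcg encodes preproglucagon, the precursor of glucagon-like peptides, and its neurons in the caudal NTS are the main brain source of glucagon-like peptide 1. Its processed signal was 1001 ± 100 in the male and 711 ± 71.1 in the female pool, each from 1 spot. As scaled signals these were 43.9 and 30.3, so Gcg was 1.45-fold higher in the male pool, a difference of -0.53 with an error of 0.20. Gcg lay among genes with a mean scaled signal of 15.4 to 58.4, 1 of 4 bins of equal size, where the SD of the difference over genes was 0.16 and 0.685% of genes were past 1.5-fold. In whole tissue, fewer cells of a type and less RNA per cell cannot be told apart.

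Prlh lay on the other side. It encodes prolactin-releasing peptide, which reduces food intake and is made by noradrenergic neurons of the NTS. Its processed signal was 2506 ± 251 in the male and 3428 ± 343 in the female pool, or 110 and 146 as scaled signals. Prlh was therefore 1.33-fold higher in the female pool, a difference of 0.41 with an error of 0.20, in the brightest of the 4 bins, where the SD over genes was 0.13. Among the noradrenergic genes of the same region, Th, the first enzyme of catecholamine synthesis, had 602 in the male and 532 in the female pool, and Dbh, which makes noradrenaline, had 399 and 381. Slc6a2, the noradrenaline transporter, was dim, with 1.27 and 1.55, a difference of 0.29 to the female side that was 0.07 with normexp. The female-to-male ratio of Prlh was 1.39 times that of Dbh and 1.5 times that of Th. On the log2 scale these gaps were 0.48 and 0.59, each with an error of 0.28. Over 12 other settings they ran from 0.47 to 0.49 and from 0.56 to 0.59. Most of these settings cannot move a gap between genes with 1 probe each. A constant scaling cancels, and filters and probe summaries leave the values as they are. The narrow ranges therefore do not measure the precision of the gaps. The ratio of Prlh was 1.92 times that of Gcg, a gap of 0.94 with an error of 0.28, and this gap ran from 0.79 to 0.97 over the same settings.

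Cck and Cartpt were both bright and differed little. Cck, which encodes cholecystokinin, had 1 probe on 10 spots, the only satiety gene with repeated spots. Its scaled signals ran from 430 to 458 in the male pool, with a median of 444, and from 501 to 545 in the female pool, with a median of 511. The 2 sets of spots did not overlap, and all 10 spots were higher in the female pool, by 0.16 to 0.27. The mean difference was 0.22, or 1.17-fold, with an SD over spots of 0.034. Cck lay in the brightest of the 4 bins, where the SD of the difference over genes was 0.13. The median SD over spots there, with both arrays combined, was 0.06 for 1126 probes with repeated spots. How often the spots of other such probes do not overlap was not counted. These spots share 1 labelled pool per array, so their spread holds no variation between animals, and it was smaller than the software's error of 0.20 for this gene. Cartpt encodes the precursor of cocaine- and amphetamine-regulated transcript peptides, which reduce feeding. It had 257 in the male and 225 in the female pool, 1.15-fold higher in the male pool, a difference of -0.20 that did not exceed its error of 0.20. The software's model gave that same error for Gcg, Prlh, Cck and Mc4r. Cartpt had 1 spot, so no spread over spots was measured for it. It lay in the same bin as Cck, where the SD over genes was 0.13.

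**Figure D2:**
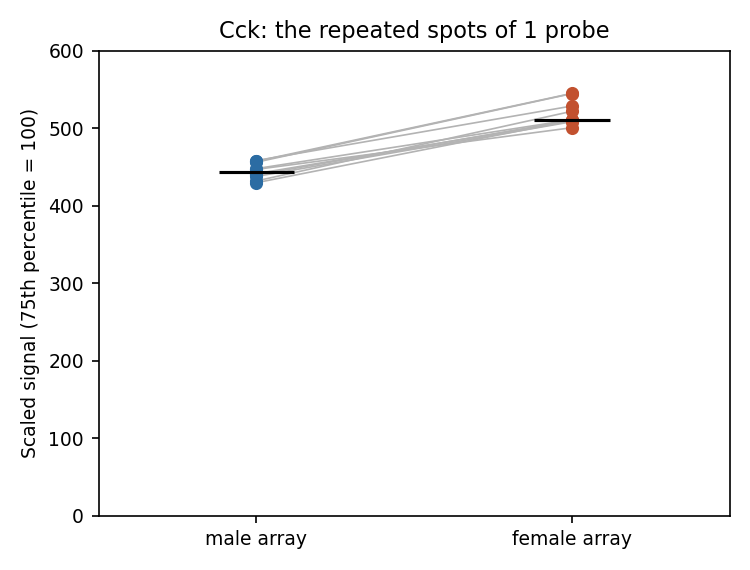
Scaled signal of the 10 repeated spots of the Cck probe on the male and the female array, with grey lines joining the same spot position and black bars at the medians of 444 and 511. The male spots lie between 430 and 458 and the female spots between 501 and 545.

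To show the sequence at the start of these peptide genes, the 250 bases before the annotated start are printed for the 3 whose promoters were matched, from RefSeq on assembly GRCr8. The array was designed on the older assembly rn4, so the coordinates are those of RefSeq only, and all 3 windows lie upstream of the annotated start of the gene. Gcg is at chr3:67531534-67531783 on the minus strand, Prlh at chr9:98993913-98994162 on the plus strand and Cartpt at chr2:32991236-32991485 on the minus strand. Each is written 5′ to 3′ along its gene, with capitals on TATAAA (the TATA box, which positions transcription) and on TGACG (the core of the cyclic AMP response element), searched on both strands.
Gcg: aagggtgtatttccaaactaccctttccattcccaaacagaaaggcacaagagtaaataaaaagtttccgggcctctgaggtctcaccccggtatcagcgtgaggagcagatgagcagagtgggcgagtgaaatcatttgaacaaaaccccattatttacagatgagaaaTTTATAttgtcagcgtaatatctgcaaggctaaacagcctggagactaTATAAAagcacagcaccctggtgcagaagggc
Prlh: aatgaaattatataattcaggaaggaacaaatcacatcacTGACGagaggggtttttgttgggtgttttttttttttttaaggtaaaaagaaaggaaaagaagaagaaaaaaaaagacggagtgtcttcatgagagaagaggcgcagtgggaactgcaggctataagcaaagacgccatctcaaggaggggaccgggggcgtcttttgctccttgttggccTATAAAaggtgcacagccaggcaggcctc
Cartpt: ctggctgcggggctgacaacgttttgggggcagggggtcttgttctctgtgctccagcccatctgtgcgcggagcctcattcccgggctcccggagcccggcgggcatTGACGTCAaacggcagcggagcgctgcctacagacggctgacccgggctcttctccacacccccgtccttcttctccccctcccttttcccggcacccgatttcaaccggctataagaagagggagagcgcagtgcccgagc

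In Gcg, TATAAA lay 32 to 27 bases before the start, and a match on the opposite strand lay 80 to 75 bases before it. In Prlh, TATAAA lay 29 to 24 bases before the start and TGACG 210 to 206 bases before it. In Cartpt, the whole palindrome TGACGTCA, which holds TGACG on each strand, lay 142 to 135 bases before the start. Over 33469 promoter windows of the same length, 12.9% held TATAAA, 18.2% held TGACG and 1.59% held TGACGTCA. GGTCA, which is 1 arm of the estrogen response element, was in 35.4% of all windows and in those of Cartpt, Glp1r, Mc4r and Mc3r. It was not in those of Gcg, Prlh, Lepr and Cckbr. The full element GGTCANNNTGACC, which contains that arm on each strand, was in 0.0239% of all windows and in none of the 8 matched here. TTCNNNGAA, the form bound by STAT factors of the leptin pathway, was in 7.67% of all windows and in none of these 8. Cck and Cckar had no entry.

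Of the receptor genes, Lepr differed most between the pools. Lepr encodes the leptin receptor, a cytokine receptor with splice forms that differ in their signalling tail. Its 1 probe had a processed signal of 20.8 ± 2.82 in the male and 46.3 ± 4.98 in the female pool, and scaled signals of 0.913 and 1.97. It was 2.16-fold higher in the female pool, a difference of 1.11 with an error of 0.25. The raw spot medians behind this were 57.0 and 82.0, over local backgrounds of 38.0 and 37.0. With normexp background correction the difference was 0.33, or 1.26-fold, and without background correction 0.49, or 1.40-fold, so both ended the 1.5-fold call while the direction stayed. Lepr lay in the dimmest bin, with mean signals up to 3.97, where 6.97% of genes were past 1.5-fold, 1.58% were past 2-fold and the SD over genes was 0.36. The probe's accession does not tell which splice form it reads.

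Glp1r, the receptor for glucagon-like peptide 1, had 0.991 in the male and 1.03 in the female pool. The difference of 0.05 was smaller than its error of 0.25, and it was at or below 0 in 4 of 11 other settings: normexp, no background correction, quantile and loess. Cckar, the CCK-A receptor known on vagal afferents, whose cell bodies lie in the nodose ganglion outside the dissected block, had 1.33 in the male and 1.41 in the female pool, a difference of 0.08 with an error of 0.23. Cckbr, the CCK-B receptor found widely in the brain, had 2 probes. The first had 2.28 and 2.32 in the male and female pools and the second had 1.81 and 2.08. Their differences of 0.03 and 0.20 had the same direction, and their mean of 0.11 was within its error of 0.16. These 3 receptor genes lay in the dimmest bin, and their signals were 11.6 to 28.7 times the negative control median. Each array had 308 negative control spots, and the signal of Glp1r was reached by 1 of them for the female pool and by 0 for the male pool.

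The melanocortin receptors differed in how well they were measured. Mc4r, the receptor through which melanocortins reduce feeding, was well above background, with 20.4 in the male and 18.3 in the female pool. It was 1.11-fold higher in the male pool, a difference of -0.16 within its error of 0.20. The SD of the difference over genes in its bin was 0.16. Mc3r, a second melanocortin receptor, was not well above background in the male pool, where its signal was 0.385, and was so in the female pool, at 0.663. The female signal was 1.72-fold higher than the dim male signal, a difference of 0.78 with an error of 0.41. The male signal was above 0.365, the lowest signal accepted as well above background on that array. The fold is therefore a ratio of measured signals and not a lower bound.

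**Figure D3:**
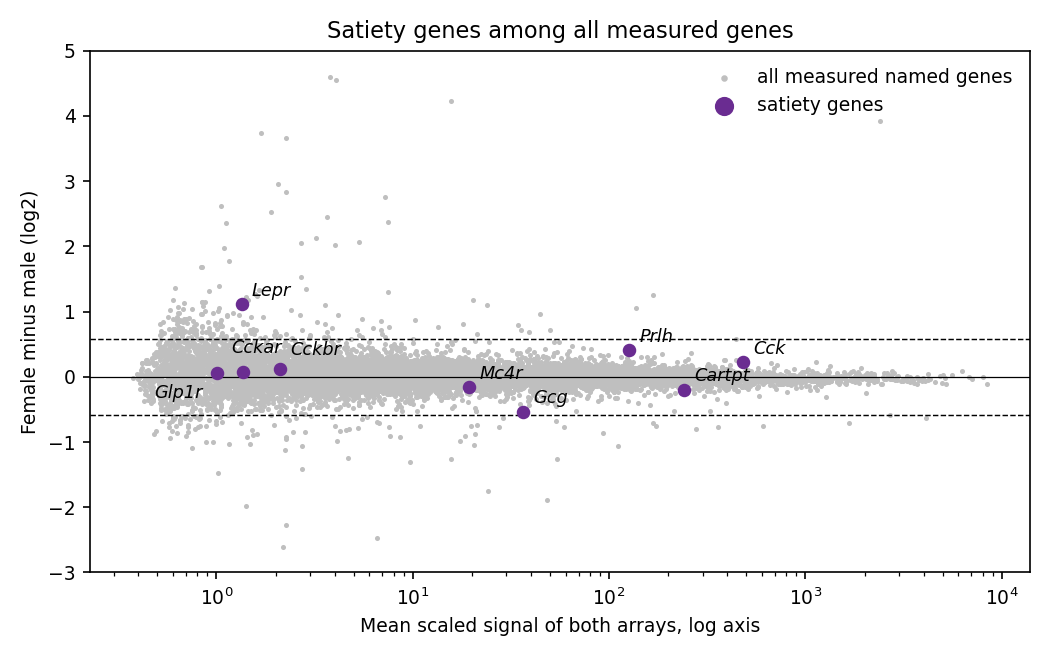
Female minus male difference (log2) against the mean scaled signal of both arrays (log axis) for 13428 measured named genes in grey and the 9 measured satiety genes in purple, with dashed lines at 1.5-fold. The grey cloud is widest at low signal, where Lepr lies at 1.11, while Gcg at -0.53 and Prlh at 0.41 lie at its edge at higher signal.

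Other genes of appetite control were counted from lists. Of 14 other appetite peptide genes, 10 were measured, 1 was past 1.5-fold on the female side and 0 on the male side, and the median was 0.12. The gene past 1.5-fold was Gdf15, a stress-induced hormone that reduces intake through Gfral in the hindbrain, with 0.925 in the male and 2.17 in the female pool, 2.34-fold higher. Its difference of 1.23 became 0.47 with normexp, below 1.5-fold. The brightest were Grp, gastrin-releasing peptide, with 140 and 173 in the male and female pools, and Nmb, neuromedin B, with 108 and 97.7. Of 22 other receptor and accessory genes, 17 were measured, 1 was past 1.5-fold in each direction and the median was 0.08. Gipr, the receptor for the gut hormone GIP, had 5.82 and 8.90, 1.53-fold higher in the female pool, and 0.38 on the log2 scale with normexp, below 1.5-fold. Mrap, which encodes a melanocortin receptor accessory protein, had 3.96 and 1.90, 2.09-fold higher in the male pool. Its difference of -1.06 was -0.60 with normexp. The brightest were Ramp1, a partner of calcitonin-type receptors, within 1.05-fold, and the BDNF receptor gene Ntrk2, within 1.03-fold. Prlhr, the receptor for prolactin-releasing peptide, named here after its values were seen, had 93.4 and 88.2, within 1.06-fold.

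Genes of leptin receptor signalling and of peptide processing lay close together on the 2 arrays, as did most genes. Of 13428 measured named genes, 9354 were within 1.1-fold and 2.29% were past 1.5-fold. In the leptin signalling list, all 13 genes were measured, 0 were past 1.5-fold and the differences ran from -0.08 to 0.22, with a median of 0.04. Socs3, which leptin induces and which limits its signal, also named after its values were seen, was within 1.04-fold. The brightest were Leprot, a gene that regulates the surface level of the leptin receptor, at 168 and 167, and the phosphatase gene Ptpn1, at 99.4 and 99.8. Of 9 prohormone processing genes, 8 were measured, 0 were past 1.5-fold and the median was 0.02, with differences from -0.01 to 0.17. The convertase helper gene Scg5 and the carboxypeptidase gene Cpe, which act on many peptide precursors, were within 1.02-fold and 1.01-fold.

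**Figure D4:**
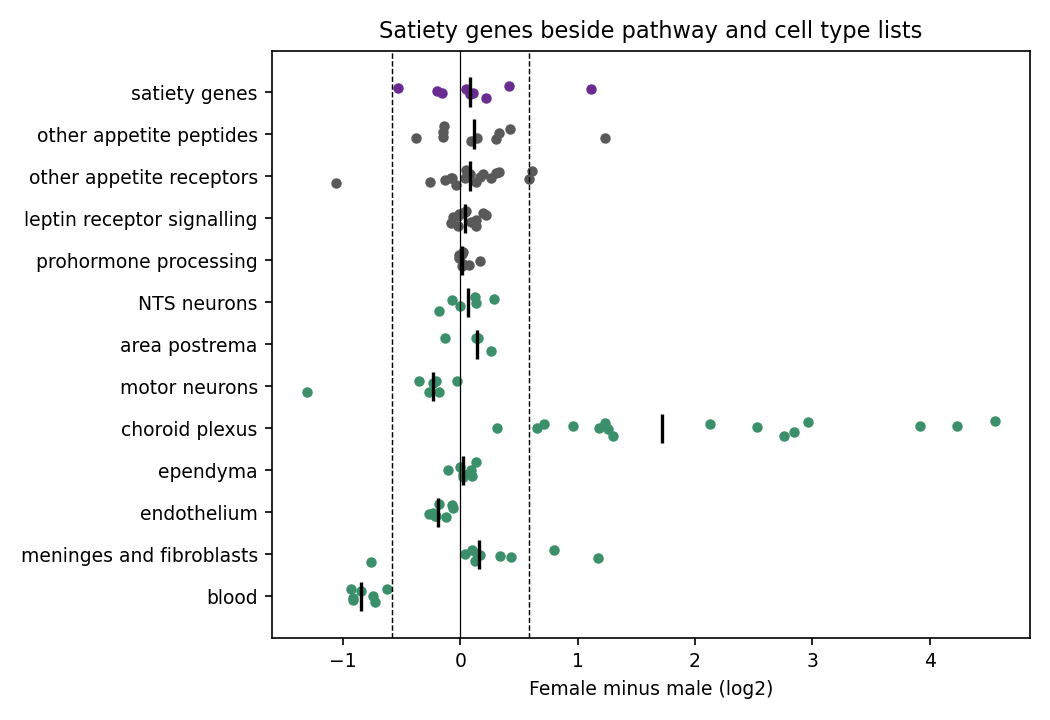
Female minus male difference (log2) of each measured gene, with black bars at the medians, for the 9 satiety genes (purple), 4 pathway lists (grey) and 8 cell type marker lists (green), with dashed lines at 1.5-fold. The choroid plexus markers lie to the female side with a median of 1.72 and the blood markers to the male side at -0.85, while the satiety genes have a median of 0.08.

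Markers of other cell types differed between the pools, some in the direction of Lepr. Of 16 measured choroid plexus markers, 16 were higher in the female pool and 15 past 1.5-fold, with a summed scaled signal of 863 in the male and 9930 in the female pool. Ttr made up most of both sums, and the other 15 summed to 246 and 602. The median of 1.72 over the 16 was 1.01 at the lowest over other background corrections and scalings. The differences were largest for Kcnj13, Sostdc1, Ttr and Prlr, at 23.5-fold, 18.8-fold, 15.1-fold and 7.79-fold. With normexp the folds of the 4 were 5.65, 10.7, 15.7 and 2.18 in that order, so the sizes for Kcnj13, Sostdc1 and Prlr depended on the background correction. Of 10 meningeal and fibroblast markers, 9 were higher in the female pool, with a median of 0.16. Slc47a1 and Igf2 were 2.25-fold and 1.74-fold higher there and Col1a2 1.70-fold higher in the male pool. With normexp Slc47a1 was 1.32-fold higher, under 1.5-fold. The sums of that list were 594 and 439, and without Col1a2, its brightest gene, 125 and 162. Area postrema markers, 3 of which are also in the receptor list above and 3 of 4 higher in the female pool, had a median of 0.14 and sums of 104 and 108, and their brightest, Casr and Ramp3, were within 1.11-fold and 1.09-fold. The part of these cells in the Lepr value was not tested.

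Of the other lists, motor neuron, endothelial and blood markers lay on the male side. Ependymal and NTS neuron markers had medians of 0.02 and 0.06. All 7 motor neuron markers were higher in the male pool, with a median of -0.23 and sums of 721 and 615 in the male and female pools, and Calca was 2.48-fold higher there. All 8 endothelial markers were higher in the male pool, with a median of -0.19 and sums of 163 and 140, and Vwf and Cldn5 were 1.17-fold and 1.2-fold higher. After centring on spike-ins, 1 gene of each of these lists lay on the female side. All 7 blood markers were past 1.5-fold on the male side, with a median of -0.85 and sums of 5400 and 3470, among them Slc4a1, Ahsp and S100a8, at 1.90-fold, 1.89-fold and 1.89-fold, and S100a9 at 1.81-fold. With normexp 3 of the 7 were past 1.5-fold and the median was -0.53. Slc4a1, S100a8 and S100a9 were then 1.25-fold, 1.34-fold and 1.35-fold higher in the male pool, and Ahsp 1.66-fold. Of 7 ependymal markers, 5 were higher in the female pool, with a median of 0.02 and sums of 1960 and 1840, and Tppp3 and Dynlrb2 were within 1.08-fold and 1.01-fold. The labelled tissue was checked with NTS neuron markers, of which 6 were measured and 4 of these were higher in the female pool, with a median of 0.06 and sums of 1380 and 1320. The part of these cells in the values of Gcg and Prlh was not tested.

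The differences of the brighter genes moved little with the processing and that of Lepr moved most. Filters, probe summaries and kept flagged spots cannot move a gene with 1 probe and no flagged spot, which is each gene below except Cckbr. Over 12 other settings, Gcg ran from -0.57 to -0.38, Prlh from 0.38 to 0.47, Cck from 0.19 to 0.29, Cartpt from -0.23 to -0.13 and Mc4r from -0.19 to -0.09. Over the 11 settings in which the dimmer genes were measured, Lepr ran from 0.33 to 1.18, Cckar from 0.01 to 0.14 and Glp1r from -0.10 to 0.11. Cckbr ran from 0.00 to 0.18.

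**Figure D5:**
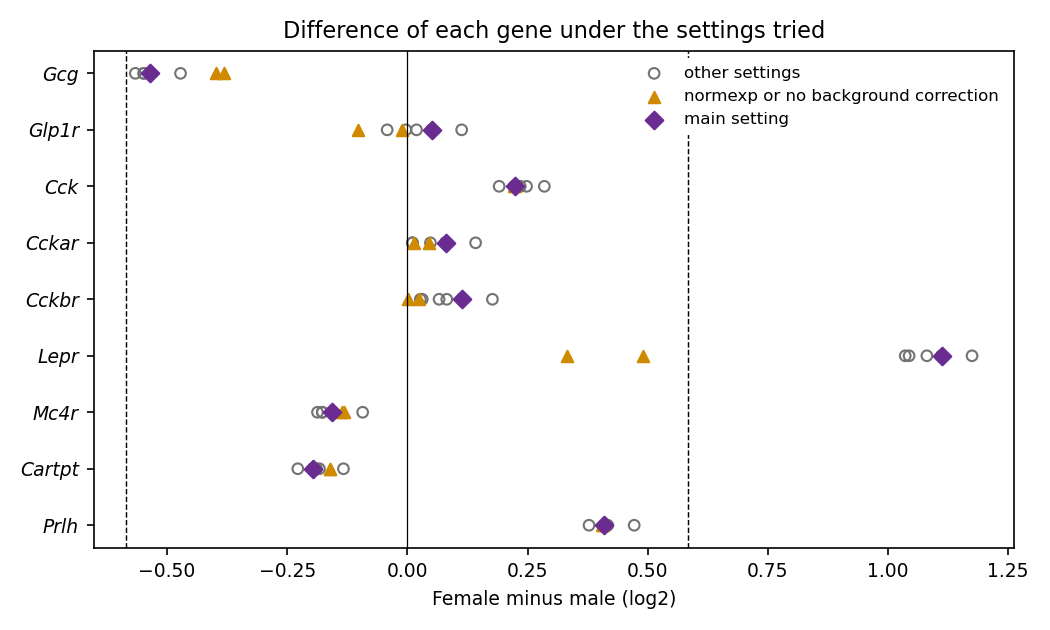
Female minus male difference (log2) of the 9 measured satiety genes in the main setting (diamonds), with normexp or no background correction (triangles) and in the other settings (open circles), with dashed lines at 1.5-fold. Lepr runs from 0.33 to 1.18, Gcg from -0.57 to -0.38 and Prlh from 0.38 to 0.47.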

How the data were processed

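The members and gene lists were chosen with earlier results of these data known. The deposited scanner files give spot intensities, which the authors extracted with Agilent Feature Extraction (version 9.1 per the submitters' processing notes, 11.5.1.1 per the file headers) and background-corrected. The authors' deposited value table held the same intensities divided by 22.8 (male) and 23.4 (female), with column medians of 19.4 and 19.6. From the files, the 75th percentile of an array was subtracted from its log2 processed signal. Control spots and 284 (male) and 363 (female) outlier-flagged spots were left out, none of them of a satiety gene. Spots of a probe, then probes well above background on both arrays, were averaged. Measured genes were split by mean signal into 4 bins of equal size. Accessions were matched to a RefSeq gene table of GRCr8. Folds are given as brighter over dimmer. Named genes were all members, from each pathway list those past 1.5-fold and the 2 brightest, and from each marker list up to 4 past 1.5-fold or the 2 brightest. With 2 arrays, no likeness between gene patterns was measured. The 1 array per sex limits the precision, and no test was run. The other settings were normexp (offset 50) and no background correction, both on spot medians, quantile, median, loess and spike-in scaling, the authors' table, no filter, the brighter probes, other probe summaries, and flagged spots kept. Python 3.11.15 and R 4.3.3 with limma 3.58.1 were used, and the code was checked on simulated data. That check left the dimmest genes unchanged, and its changes were larger than the difference of any satiety gene. It therefore does not cover dim genes or differences of the sizes found for the satiety genes.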

Additional observations from a re-analysis of the deposited data

How the results depend on the processing

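No paired analysis was possible because there was only 1 array of each sex. Lepr, the 1 gene past 1.5-fold and past 2-fold, kept its direction in all 11 other settings in which it was measured. It stayed past 1.5-fold in 9 of them, but several of these settings could not change it. With 1 probe on 1 unflagged spot, Lepr has the same value under no filter, other probe summaries, flagged spots kept and the authors' table. Both changes of the background correction ended the 1.5-fold call, at 0.33 with normexp and 0.49 on uncorrected signals. The count of satiety genes past 1.5-fold was 0 with normexp, 0 on uncorrected signals and 0 among brighter probes, which hold 5 of the genes and not Lepr, and 2 without a filter on dim probes, which adds Mc3r. The count past 2-fold was 0 in the same 3 settings. The median of the satiety genes was 0.08, and it was 0.001 with normexp, 0.011 with quantile scaling, 0.01 with loess and -0.156 in the brighter probes. Over all genes, 308 were past 1.5-fold, against 70 with normexp, 88 on uncorrected signals, 1647 without a filter and 82 in the brighter probes, and 74 were past 2-fold, against 27, 31, 772 and 25. The filters test other genes. Normexp with its offset of 50 and the uncorrected signals both leave an added amount in each signal. By construction this brings the folds of dim spots, Lepr among them, nearer to 1. How much of the lower counts this made was not tested. Of the 9 measured satiety genes, 8 kept their direction in each setting in which they had a value, and Glp1r, the exception, turned in 4. Low signal over background limits Glp1r, Cckar, Cckbr, Lepr and Mc3r. Of the 12 lists, the medians of prohormone processing and ependyma turned to -0.01 after median scaling and that of NTS neurons to just below 0 after loess scaling.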

Other observations

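Besides Mc3r, 5 genes of the pathway lists were well above background on the female array only and none on the male array only. Nmur1, a neuromedin U receptor gene, and the melanocortin receptor gene Mc5r were 2.16-fold and 2.05-fold higher in the female pool. These are ratios of measured signals, since their male signals, 0.374 and 0.37, were above the lowest accepted there, 0.365. Against that lowest signal, the female signals were 1.5-fold higher for Iapp, which encodes amylin, and 1.29-fold for the leptin gene Lep. For Dpp4, a peptidase that cuts glucagon-like peptide 1, this fold was 1.21. None of these folds takes in the error of the spots. Over all named genes, 462 were above background on the female array only and 150 on the male array only. Gip, Glp2r and Mc2r were below background on both arrays, and Nms and Mc1r had no named probe.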
